A study of Homo sapiens with 4 samples.

Results

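HuCCT1 cells given GEM alone were compared with untreated HuCCT1 cells, using 2 of the 4 arrays of the series, 1 for each condition. HuCCT1 is an established human cholangiocarcinoma line, a cancer of the bile duct epithelium, and both arrays carry total RNA of this 1 line. GEM and VPA are the labels' abbreviations, read here with their usual meanings, gemcitabine and valproic acid. The untreated array carries no agent, the GEM array GEM only, and the other 2 arrays of the series carry VPA only and GEM together with VPA (GEM_VPA). The sources used here do not give doses, exposure times or culture batches. Levels are log2 intensities normalised by the authors. A difference is the GEM array minus the untreated array, so a log2 ratio of 1 is 2-fold higher with GEM. Genes are the 18377 that have at least 1 array row annotated with exactly 1 symbol, and each has the mean of such rows. With 1 array a side there is no replicate, so every difference below is a size without error or p-value.

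Gemcitabine is a cytidine analogue. It enters cells through nucleoside transporters and is phosphorylated by deoxycytidine kinase. It is then built into DNA, where it stalls replication, while its diphosphate inhibits ribonucleotide reductase, the enzyme that makes deoxynucleotides. Cytidine deaminase removes it by converting it to the uridine form. It is a standard drug against biliary tract cancer.

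The 4 arrays did not separate by GEM. The untreated array correlated at 0.996 with the GEM_VPA array over all 28869 rows, and the GEM array at 0.996 with the VPA array, while the other pairs lay between 0.984 and 0.987. Over genes, log2 ratios had a robust SD of 0.261 for GEM over untreated, 0.158 for GEM over VPA and 0.147 for GEM_VPA over untreated. All directions below follow the labels, and whether the labels or an agent set these pairs was not tested. Array medians lay between 7.87 and 7.92. The biliary epithelial markers were well expressed, with KRT19 at 13.08 untreated and 13.68 with GEM and EPCAM at 12.83 and 12.63. Of 5 endothelial markers, all 5 lay below the array medians on both arrays, and the leukocyte marker PTPRC (5.27 and 5.23) lay below the 25th percentile, as did the hepatocyte marker ALB (5.72 and 5.64). Other members of those lists were higher on the scale, such as SERPINA1 (8.58 and 9.39), APOA1 (8.42 and 8.35) and the leukocyte markers CD68 (10.05 and 10.98), LYZ (7.41 and 8.40) and NKG7 (8.21 and 8.37), none of them called. Of 4 neuron markers, MAP2, a microtubule protein, was called higher (8.12 and 9.71, a log2 ratio of 1.58), and SYT1 was at 11.38 and 11.01. Their part in the results was not tested.

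In all, 521 genes differed at least 2-fold with the higher of the 2 values at or above its array's median. This is 2.84% of the genes measured and 4.49% of the 11593 that reached that level on either array. The array labelled GEM was higher for 172 of them (0.936%) and lower for 349 (1.90%). These shares are the background for every list count below. The median log2 ratio of all genes was -0.01 and 51.4% were below 0. The balance differed with level. In 4 equal bands of genes by mean level the median was 0.01, 0.03, -0.04 and -0.10 from the lowest band to the highest, so lists of abundant genes start from a background slightly below 0. On the limit itself, CD24 (1.00) was just inside and LYZ (0.999) just outside on the higher side, and on the lower side SP4 was just inside and RABEP1 (-0.999) just outside. In 95 of the 521 genes the lower of the 2 values was under its array's median, where ratios are compressed. CEACAM1, CLTRN, RASGRP3, ABCA12, IQGAP2, ACTBL2, SLC7A2, NT5C3A, SLC2A12, AKR1B10, SLPI, HLA-DPA1, ANKRD1, TGFB2, CHN1, MIR17HG, CALB2, CPM, CCDC88A and MIR15A, described below, are among them. Differences of 2.0 or more in log2 were seen for 18 higher and 7 lower genes. RNA was taken from whole cultures, so fewer cells of a kind and less RNA per cell cannot be told apart.

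Genes on set lists of replication, mitosis, repair and p53 targets, with the histone genes, made up 155 of the 521 genes, 12 higher and 143 lower. Those lists do not hold every gene of division and replication. Lower genes such as TYMS, HELLS, NASP, MTBP and RBL1 stayed outside them, so what follows is not free of the cell cycle. The remaining 366, of which 160 were higher and 206 lower, are the subject here. They were read through 47 lists ordered by function, which held 1300 measured genes, a few of them, such as TP53INP1, GDF15 and FAS, also p53 targets. Of these, 41 were higher and 45 lower (6.62%, against 2.84% of all genes). The lists were drawn up with earlier results of these arrays known, so that excess is not independent evidence.

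**Figure D1:**
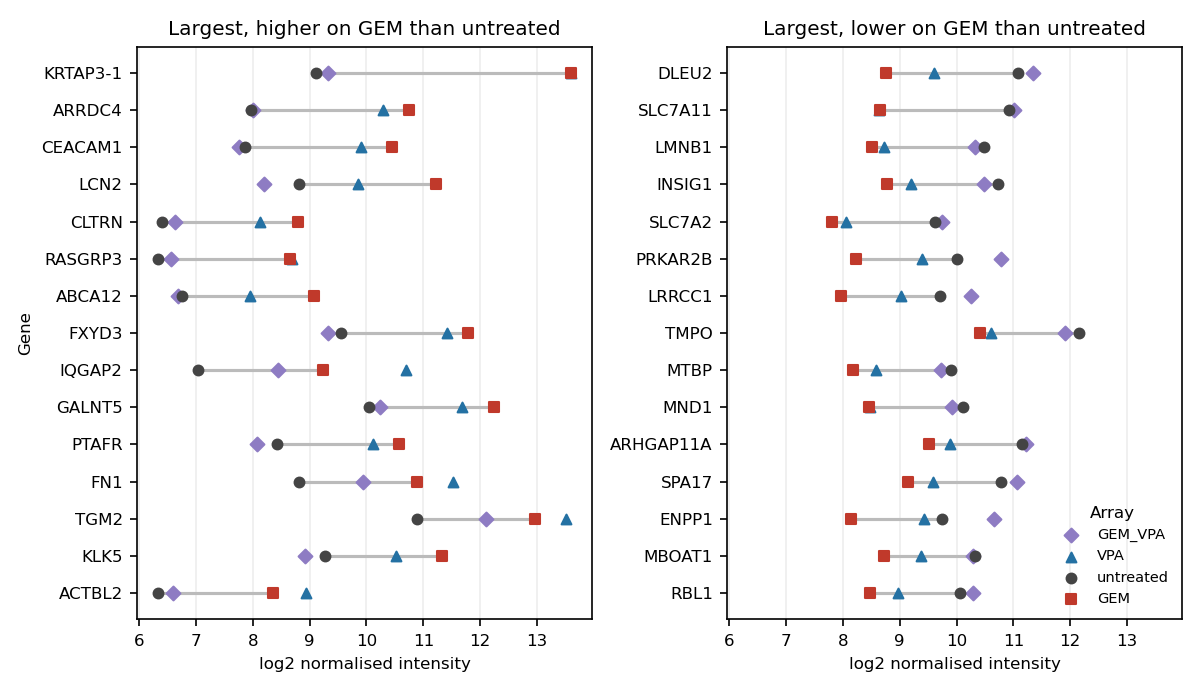
Log2 intensity of the 15 genes furthest above and the 15 furthest below untreated on the GEM array, outside the cell cycle, histone, repair and p53 lists on each of the 4 arrays, with a grey line joining the untreated (circle) and GEM (square) arrays. KRTAP3-1 has the longest line (9.12 to 13.59), and for most genes the VPA array (triangle) lies near GEM and the GEM_VPA array (diamond) near untreated.

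The genes that handle gemcitabine did not share a direction. Among 21 measured handling genes, 1 was higher and 2 were lower, against 0.936% and 1.90% of all genes. Their median log2 ratio was -0.00. CDA, cytidine deaminase, was at 10.81 on the untreated array and 12.09 with GEM, 2.42-fold higher. The VPA array stood near GEM at 12.17 and the GEM_VPA array near untreated at 10.79. DCK, deoxycytidine kinase, was at 10.67 untreated and 9.60 with GEM, 2.09-fold lower. It lay at -0.97, outside the limit, after quantile normalisation of the columns again. NT5C3A, a pyrimidine 5′-nucleotidase that dephosphorylates nucleotides, was at 8.74 and 7.70, 2.06-fold lower. So the deaminating enzyme was higher while the first kinase and one of the phosphatases were lower.

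The remaining handling genes stayed inside 2-fold. Of the uptake genes, SLC29A1, the main equilibrative nucleoside transporter, was at 11.89 untreated and 11.54 with GEM. The concentrative transporter SLC28A3 was near the lower end of the scale on both arrays (6.44 and 6.53). The subunits of ribonucleotide reductase split. RRM1, the large subunit, was at 11.72 untreated and 10.95 with GEM (-0.77), and RRM2, the S-phase small subunit, at 11.90 and 11.23 (-0.67). RRM2B, the small subunit that p53 induces, was at 10.74 and 11.50 (0.76). All 3 efflux pumps were above 0, led by ABCC10 at 8.83 and 9.65 (0.82).

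**Figure D2:**
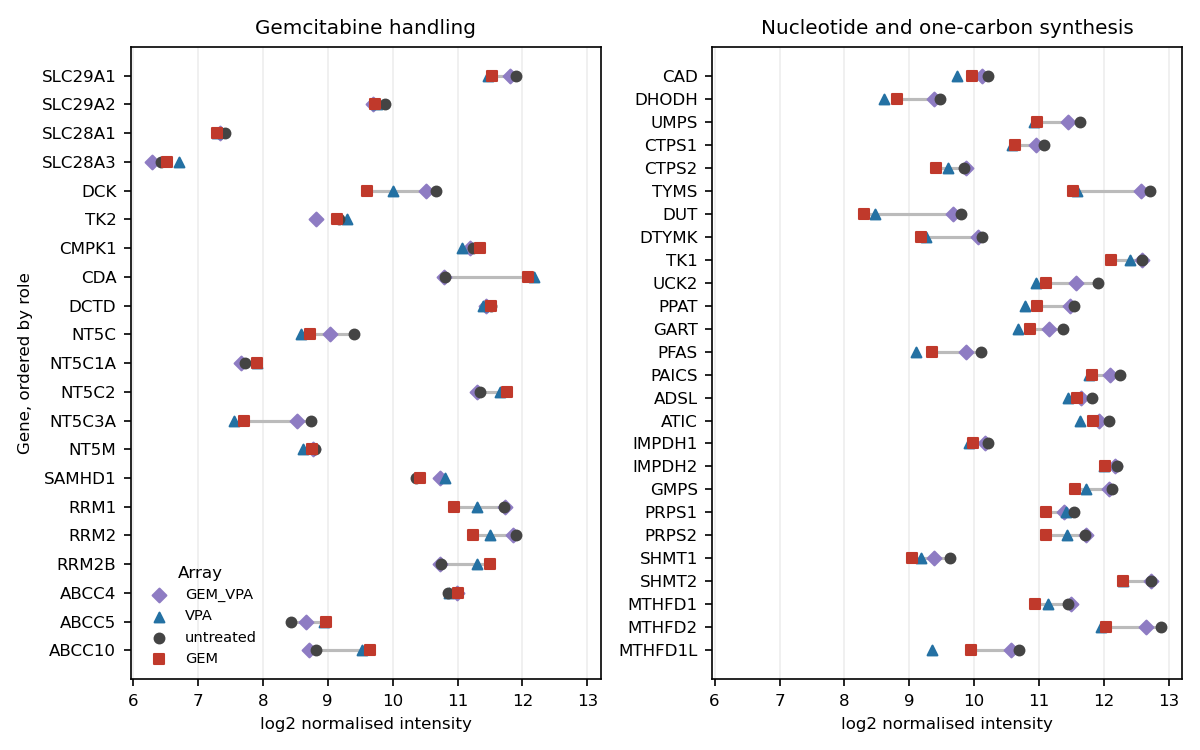
Log2 intensity of the 21 gemcitabine handling genes (left, ordered as uptake, phosphorylation, inactivation, ribonucleotide reductase and efflux) and the 26 nucleotide and one-carbon synthesis genes (right) on each of the 4 arrays, with a grey line from untreated to GEM. The GEM square of CDA lies right of its circle and those of DCK and NT5C3A left, while every square on the right-hand panel lies left of its circle.

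Nucleotide synthesis genes were all below 0, and few passed the limit. All 26 measured genes of the pyrimidine, purine and one-carbon pathways were below 0, with a median of -0.54. Of these 2 passed the limit, both lower, against 1.90% of all genes. The list holds abundant genes, and the highest of the 4 level bands had a median of -0.10 with 60.8% below 0. DUT, the dUTPase that keeps uracil out of DNA, was at 9.80 untreated and 8.30 with GEM, 2.83-fold lower. TYMS, thymidylate synthase, was at 12.70 and 11.53, 2.26-fold lower. DTYMK, the thymidylate kinase that follows it, was at 10.12 and 9.18 and just short of the limit (-0.94). The smallest difference was in IMPDH2, of guanine nucleotide synthesis (-0.19). The pyrimidine genes had a median of -0.67 and the purine genes -0.43.

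The most different gene was a hair protein gene. KRTAP3-1, a keratin-associated protein of the hair shaft, was at 9.12 untreated, 13.59 with GEM, 13.60 with VPA and 9.32 with GEM_VPA, 22.1-fold higher with GEM than without. Its 2 rows differed by almost nothing (4.47 each), and may share probes. Of 65 other measured KRTAP genes 0 were called, and they ranged from -0.43 to 0.90.

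Genes of epithelial defence and surface followed. LCN2, lipocalin 2, which binds bacterial iron carriers, was at 8.81 untreated, 11.22 with GEM, 9.86 with VPA and 8.21 with GEM_VPA, 5.30-fold higher with GEM. SLPI, a secreted protease inhibitor, was 2.49-fold higher (7.52 and 8.84). Of 28 measured defence and acute-phase genes these 2 were called, against 0.936% of all genes called higher, and 20 were above 0, with a median of 0.10. Many of the others, such as SAA1 (4.96 and 5.11), were at the bottom of the scale on both arrays. LYZ, lysozyme, which also marks myeloid cells, was at 7.41 and 8.40, just short of the limit. The summed level of the 8 measured leukocyte markers was 10.98 untreated and 11.65 with GEM, where CD68 (10.05 and 10.98), also a lysosomal gene, was the most abundant. Its part in the defence genes was not tested.

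CEACAM1, an adhesion protein of epithelial cells, was at 7.86 untreated, 10.45 with GEM, 9.90 with VPA and 7.75 with GEM_VPA, 5.99-fold higher with GEM. It was the 1 called gene among 11 CEACAM family members, and CEACAM6 was low on both arrays (5.91 and 6.33). FXYD3, a small regulator of the sodium pump, was at 9.56 and 11.79, 4.72-fold higher, the 1 called gene of 27 for pump and ion channels. With 0.936% of all genes called higher, 1 call in such a list is not read as a result about the list. PTAFR, the receptor for platelet-activating factor, was 4.41-fold higher (8.43 and 10.57). GALNT5, which starts mucin-type O-glycans, was 4.59-fold higher (10.05 and 12.25). Of the other glycan genes, the sialyltransferase ST6GALNAC2 was higher (9.39 and 10.43, but 0.99 after median centring of the arrays) and the sialyltransferase ST3GAL6 lower (9.11 and 7.96). CLTRN, a collectrin that carries amino acid transporters to the membrane, was at 6.41 and 8.80, and its untreated value lay below the 25th percentile, so its 5.23-fold difference may be understated.

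Skin-type barrier and keratin genes were mostly above 0. ABCA12, which loads lipids for the skin barrier, was at 6.76 untreated and 9.08 with GEM, 4.99-fold higher. KLK5, a serine protease of the upper skin, was at 9.28 and 11.34, 4.17-fold higher. Of 34 measured barrier genes those 2 were called, against 0.936% of all genes called higher, and 27 were above 0, with a median of 0.22. The neighbouring kallikreins KLK7 and KLK10 had 0.81 and 0.78. Of 16 keratins, 15 were above 0 (median 0.45), and the 7 keratins of simple epithelia had a median of 0.64. KRT7, a keratin of bile ducts, was at 9.53 and 11.14, 3.04-fold higher and the only keratin called. KRT20 (7.41 and 8.39) and KRT80 (8.42 and 9.32) stayed inside the limit. Among 32 junction genes, GJB5, a gap junction connexin, was called (8.60 and 9.82, 2.34-fold higher). E-cadherin, CDH1, was at 11.03 and 12.02 (0.98) and plakoglobin, JUP, at 11.63 and 12.61 (0.98). These last genes passed the limit after quantile normalisation of the columns again, at 1.08 and 1.05.

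Several matrix and adhesion genes were called higher. FN1, fibronectin, was at 8.82 untreated, 10.90 with GEM, 11.52 with VPA and 9.95 with GEM_VPA, 4.23-fold higher with GEM. TGM2, a transglutaminase that cross-links matrix proteins, was at 10.90 and 12.96, 4.18-fold higher. THBS1, thrombospondin 1, was 2.21-fold higher (10.11 and 11.25). The laminins, which build the basement membrane, were all above 0 in 6 of 6 measured genes, with a median of 0.73, and LAMB3 (9.81 and 11.01) and LAMB2 (9.41 and 10.53) were called. ITGA2, an integrin chain for collagen and laminin, was at 10.51 and 11.69, 2.27-fold higher, the 1 called of 11 integrins. Of those, 8 were above 0 and 3 below, with ITGB5 lowest (-0.48). In the list of epithelial-mesenchymal transition regulators and mesenchymal genes, which holds FN1 and THBS1, those 2 were the called members of 20, with 11 above 0, 9 below and a median of 0.01. Its transcription factors were not called, from TWIST1 (-0.39), ZEB1 (-0.26) and SNAI1 (-0.23) to SNAI2 (0.67). SERPINB5, maspin, was 3.14-fold higher (10.11 and 11.76), the 1 called gene of 26 for complement and coagulation. The share of all genes called higher was 0.936%, so that 1 call is not read as a result about its list.

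Signalling genes gave single members rather than lists. RASGRP3, a Ras activator, was at 6.33 untreated and 8.66 with GEM, below the 25th percentile without the drug, a log2 ratio of 2.32. IQGAP2, a scaffold protein, was at 7.04 and 9.24, 4.61-fold higher. CHN1, which switches Rac off, was 2.65-fold lower (8.20 and 6.80) and ARHGAP11A, a GTPase-activating protein, 3.11-fold lower (11.16 and 9.52). ACTBL2, an actin gene whose close copies can share its probes, was 4.07-fold higher from a level below the 25th percentile (6.34 and 8.37). Among 24 YAP and TEAD targets, ANKRD1 (7.07 and 8.57) and CCN1 (9.66 and 10.93) were higher and TGFB2, a TGF-beta ligand, lower (8.25 and 7.22). Over all genes, 0.936% were called higher and 1.90% lower. CCN2, the standard partner of CCN1, was near 0 (9.76 and 9.91). ID1, a BMP target, was lower (12.27 and 11.20), at -0.98 and outside the limit after quantile normalisation of the columns again. JUN, an immediate-early gene, was 2.45-fold higher (9.36 and 10.65), the 1 called gene of 40 receptor tyrosine kinase and ERK feedback genes.

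Interferon genes split by role. Interferons induce antiviral genes through receptors and STAT proteins, and viral or damaged nucleic acid is sensed upstream of them. Of 9 sensing genes 2 were called, both higher, against 0.936% of all genes. TLR3, which senses double-stranded RNA, was at 8.93 untreated and 10.69 with GEM, 3.40-fold higher. RIGI, a cytosolic RNA sensor, was at 8.72 and 9.83, 2.16-fold higher. CGAS, the DNA sensor, was low on both arrays (5.71 and 5.48). The receptors and signal genes had a median of -0.20, with none called of 9, and no STAT gene is among those measured on the list. Of 34 interferon-stimulated genes, 28 were above 0 with a median of 0.30, and 2 were called, against 0.936% of all genes called higher. IFI6, a mitochondrial interferon-stimulated protein, was at 10.31 and 12.33, 4.04-fold higher, and SAMD9, an antiviral factor, at 8.36 and 9.95, 3.01-fold higher. MX1 (6.57 and 6.63) and OAS2 (6.42 and 6.43) stood low on both arrays.

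Ligands of NKG2D, the activating receptor of natural killer cells, went both ways. ULBP1 was at 10.04 untreated and 8.71 with GEM, 2.50-fold lower. RAET1L was at 9.55 and 10.51 (0.96) and ULBP2 at 9.23 and 9.79, while MICA (10.53 and 10.38) and MICB (11.43 and 11.21) lay close to untreated. Of the class II genes, HLA-DPA1 was at 7.27 and 8.44, 2.25-fold higher. It had 3 rows that may share probes with near-identical copies, and the row with the highest mean gave 0.97, short of the limit. The class II regulator CIITA was flat (7.82 and 7.77). Among 32 secreted cytokines and chemokines GDF15, a stress cytokine and p53 target, was the 1 called gene (12.10 and 13.60, 2.85-fold higher). In the NF-kB list no member of 19 was called, and NFKB1 had the lowest ratio (-0.96). In the death list, FAS, a death receptor and p53 target, was 2.34-fold higher (9.96 and 11.19), the 1 called gene of 37. As 0.936% of all genes were called higher, the single calls of GDF15 and FAS are not read as results about their lists. The pro-death genes of the list had 11 of 14 above 0 and a median of 0.28, and the pro-survival genes 2 of 8 above 0 and a median of -0.08.

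A few glucose uptake genes were called higher. MondoA and its partner MLX sense glucose phosphate and drive arrestin-domain genes that restrain glucose uptake, of which TXNIP and ARRDC4 are the best known. ARRDC4 was at 7.97 untreated, 10.75 with GEM, 10.29 with VPA and 8.01 with GEM_VPA, 6.87-fold higher with GEM. TXNIP was low on all 4 arrays (6.22 untreated, 6.33 with GEM, 6.40 with VPA and 6.42 with GEM_VPA), so these values do not show whether it differed. Of 10 glucose transporters 3 were called, all higher, while 6 were above 0 and 4 below, the lowest being SLC2A13 (8.52 and 7.90, -0.62). SLC2A3, the neuronal-type glucose transporter GLUT3, was at 10.20 and 12.16, 3.91-fold higher, but its near-identical copy SLC2A14 (8.34 and 10.06, 1.71) can share its probes. SLC2A12 was at 7.52 and 8.84, 2.51-fold higher. SLC2A1, the general transporter GLUT1, was at 12.38 and 13.42, 2.05-fold higher, and was at 0.995 with each array centred on its median. In all, 4 of 19 genes were called, all higher, against 0.936% of all genes. ARRDC4 was the 1 called of the 9 listed genes of the MondoA arm. Of those 9, 6 were above 0 and 3 below, namely ARRDC3 (-0.32), KLF10 (-0.27) and ARRDC2 (-0.10). None of 27 glycolysis and pentose phosphate genes was called (median -0.08).

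The 250 bases before the start of 3 of these genes are shown with a pair of short motifs searched in them, the E-box CACGTG and the CCAAT box. MondoA and MLX bind a pair of E-box-like sites that can differ from CACGTG, and that paired element was not searched for, so these counts say nothing of it. The sequences come from RefSeq on GRCh38.p14, and capitals mark CACGTG and the CCAAT box on either strand (CCAAT or ATTGG), which do not overlap here. TXNIP has 2 start sites in that table, and the window of one is printed. ARRDC4 lies on chromosome 15, TXNIP on chromosome 1 and INSIG1 on chromosome 7, at chr15:97960453-97960702 (+), chr1:145996580-145996829 (-) and chr7:155297628-155297877 (+).
ARRDC4: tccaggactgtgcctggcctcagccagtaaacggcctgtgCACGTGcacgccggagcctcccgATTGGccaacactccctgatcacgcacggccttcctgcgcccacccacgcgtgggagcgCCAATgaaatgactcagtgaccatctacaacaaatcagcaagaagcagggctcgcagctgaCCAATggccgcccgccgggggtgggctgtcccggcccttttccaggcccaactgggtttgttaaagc
TXNIP: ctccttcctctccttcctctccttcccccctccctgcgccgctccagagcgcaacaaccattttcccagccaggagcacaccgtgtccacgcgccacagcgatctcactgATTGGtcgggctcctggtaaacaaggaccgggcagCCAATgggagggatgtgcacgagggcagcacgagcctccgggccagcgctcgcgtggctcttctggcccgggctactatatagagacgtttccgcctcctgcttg
INSIG1: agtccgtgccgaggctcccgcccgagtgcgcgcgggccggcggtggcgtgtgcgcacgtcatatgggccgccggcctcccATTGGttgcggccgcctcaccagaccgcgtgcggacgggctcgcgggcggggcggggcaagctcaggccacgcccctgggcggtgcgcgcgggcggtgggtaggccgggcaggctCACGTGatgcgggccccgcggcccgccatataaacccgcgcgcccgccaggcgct
The ARRDC4 window held 1 CACGTG, beginning 210 bases before the start, and 3 CCAAT boxes. The printed TXNIP window held no perfect CACGTG and 2 CCAAT boxes, and that of its other start (chr1:145995745-145995994) held 0 of either. The INSIG1 window held 1 CACGTG, 55 bases before the start, and 1 CCAAT box. For comparison, 6.34% of all 35116 promoters held CACGTG and 32% a CCAAT box. In the glucose list 3 of 20 promoters (15%) held CACGTG and 11 (55%) a CCAAT box. A match is a description of these letters and says nothing of binding.

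Sterol genes gave 1 call in each direction, with most members below 0. INSIG1, which holds back sterol regulatory element-binding proteins when sterol is plentiful and is itself one of their targets, was at 10.73 untreated, 8.78 with GEM, 9.19 with VPA and 10.49 with GEM_VPA, 3.85-fold lower with GEM. Of 23 measured cholesterol genes, 19 were below 0 with a median of -0.31. Besides INSIG1, the 1 called gene was TM7SF2, a sterol reductase, which was higher (9.34 and 10.47, 2.18-fold). Across all genes, 1.90% were called lower and 0.936% higher. CYP51A1, lanosterol demethylase (10.87 and 10.11), and SQLE, squalene epoxidase (11.52 and 10.77), were below the limit. In the cholesterol list 4 of 28 promoters (14.3%) held CACGTG and 20 (71.4%) a CCAAT box. The fatty acid genes went both ways. FADS3, of the desaturase family, was 2.15-fold higher (10.77 and 11.87), while SCD, stearoyl-CoA desaturase, was at 13.11 and 12.23 (-0.88). HADH, of mitochondrial beta-oxidation, was 2.32-fold lower (9.90 and 8.68), the 1 called of 21 oxidation genes. Of those 21, 11 were above 0 and 10 below, with a median of 0.01. MBOAT1, a phospholipid acyltransferase, was 3.04-fold lower (10.33 and 8.73).

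Amino acid supply genes were lower in a few members. SLC7A11, which imports cystine for glutathione, was at 10.93 untreated, 8.66 with GEM, 8.64 with VPA and 11.01 with GEM_VPA, 4.81-fold lower with GEM. SLC7A2, a cationic amino acid transporter, was 3.51-fold lower (9.61 and 7.80). Of 22 transporters these 2 were called, against 1.90% of all genes called lower. None was called higher, and 17 were below 0 (median -0.19). SLC3A2, the chain that partners SLC7A11, was at 12.39 and 12.29. Of 18 ATF4 and serine synthesis genes 3 were called, all lower, against 1.90% of all genes. ASNS, asparagine synthetase, was at 10.48 and 9.14 (2.53-fold). PHGDH, the first enzyme of serine synthesis, was at 11.72 and 10.41 (2.48-fold) and PSAT1, the second, at 11.97 and 10.85 (2.17-fold). ATF4 itself was at 11.06 and 11.29. Other members of the ATF4 arm went both ways, none of them called. SESN2, also a p53 target (9.21 and 9.91), and ATF3 (7.77 and 8.48) were above 0. CEBPG (-0.91) and CHAC1 (-0.63) were below it. Of the 13 genes of that arm 6 were above 0 and 7 below, with a median of -0.22. No tRNA synthetase of 19 was called (median -0.26). In the glutathione and NRF2 list AKR1B10, an aldo-keto reductase (6.68 and 8.12), and ABCC3, an efflux pump (8.43 and 9.58), were higher, and GCLM, of glutathione synthesis, was at 9.62 and 8.71 (-0.91). STEAP1, a metalloreductase, was lower (10.54 and 9.53).

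Lysosome and autophagy genes were mostly above 0, 44 of 57, with a median of 0.30. TP53INP1, a p53-induced autophagy protein, was at 9.28 untreated and 11.66 with GEM, 5.19-fold higher. ATP6V0A1, a proton pump subunit, was at 10.82 untreated and 2.27-fold higher, and GABARAPL1, which coats autophagosomes, at 10.59 and 11.70 (2.16-fold). These 3 were the called genes, against 0.936% of all genes called higher, and TP53INP1 is also on the p53 list set aside. The cargo receptor SQSTM1 was flat (11.93 and 11.92).

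Nuclear envelope genes were lower in several members. The lamina lines the inner nuclear membrane and holds chromatin there. LMNB1, lamin B1, was at 10.48 untreated, 8.51 with GEM, 8.72 with VPA and 10.33 with GEM_VPA, 3.92-fold lower with GEM. TMPO, which anchors lamins to chromatin, was at 12.15 and 10.41, 3.35-fold lower. LBR, the lamin B receptor, was at 11.42 and 10.27, 2.22-fold lower. LMNA, lamin A/C, was at 11.40 and 11.50, within 2-fold. LMNB2, the second B-type lamin, was at 11.79 and 10.88 (-0.91). Of 17 envelope genes 3 were called, all lower, against 1.90% of all genes.

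Of 46 measured genes of the nuclear pore and its transport receptors 5 were called, all lower, against 1.90% of all genes. In all 44 were below 0, with a median of -0.64. NUP107 (10.78 and 9.53), NUP37 (11.44 and 10.27), NUP54 (10.71 and 9.63) and NDC1 (11.89 and 10.83), all pore subunits, and the exporter XPO1 (11.72 and 10.64) were called. After quantile normalisation of the columns again XPO1, NUP54 and NDC1 lay between -0.99 and -0.95, outside the limit. KPNA6, an import adaptor, was the highest of the 46 (0.40).

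Of 51 chromatin genes 8 were called lower and 1 higher, against 1.90% and 0.936% of all genes. Histone chaperones and HMG proteins, which place and loosen histones, had 5 of 15 called, all lower, against 1.90% of all genes, and a median of -0.77. HELLS, a chromatin remodeller that supports DNA methylation, was at 9.95 and 8.42, 2.88-fold lower, HMGB2 at 10.58 and 9.13, 2.72-fold lower, and NASP, a histone chaperone, at 10.32 and 9.07, 2.37-fold lower. The histone methyltransferases EZH2 (11.57 and 10.40) and SUV39H1 (9.93 and 8.84) were lower by 2.25-fold and 2.12-fold. KDM5B, which removes methyl groups from histone H3, was the 1 higher gene (9.17 and 10.52, 2.55-fold). None of 14 deacetylases, 11 HDACs and 3 sirtuins, was called (median -0.12).

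Of 23 centrosome genes 5 were called, all lower, against 1.90% of all genes, and 21 were below 0, with a median of -0.72. LRRCC1, a centrosome protein, was at 9.71 and 7.96, 3.36-fold lower. CEP128 (9.14 and 7.95), CEP57 (10.13 untreated), CEP135 (9.05 and 7.92) and CEP78 (10.48 and 9.48) were lower by at most 2.27-fold, and CEP78, nearest the limit, was at -0.92 after quantile normalisation of the columns again. None of 14 tubulin and microtubule genes was called (median -0.06).

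Splicing factors were all below 0, 43 of 43, with a median of -0.55. SNRPD1, a core subunit of the spliceosome, was at 10.81 untreated and 9.67 with GEM, and HNRNPR, an RNA-binding protein, at 11.97 and 10.96. Only these 2 were called, against 1.90% of all genes called lower. HNRNPR was at -0.90 after quantile normalisation of the columns again, and so were PSMC6 at -0.96 and the iron gene STEAP1 at -0.92, all short of the limit. Proteasome genes had a median of -0.33 with PSMC6 called (10.57 and 9.53), and chaperones -0.22 with HSPE1 called (11.24 and 10.02). These lists hold abundant genes, and the highest of the 4 level bands had a median of -0.10 with 60.8% below 0. A further 10 lists held no called gene at all. They were glycolysis and pentose phosphate, LXR targets, tRNA synthetases, mucins, NF-kB, hepatobiliary transcription factors, ribosome biogenesis, ribosomal proteins, the respiratory chain and housekeeping genes, with 257 measured members in all and medians between -0.34 and 0.11. The mucin list had 3 of 19 genes at level, so it was little measured.

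Several lower genes outside the lists belong to division or signalling. RBL1, the pocket protein p107, was at 10.07 untreated and 8.47 with GEM, 3.02-fold lower. MTBP, an MDM2-binding protein that also serves replication, was at 9.90 and 8.17, 3.32-fold lower, and MND1, a meiotic recombination protein, at 10.12 and 8.46, 3.17-fold lower. PRKAR2B, which holds protein kinase A inactive, was at 8.23 with GEM, 9.39 with VPA and 10.79 with GEM_VPA, 3.41-fold lower with GEM. ENPP1, an ectoenzyme that hydrolyses extracellular nucleotides and cGAMP, was at 9.74 untreated, 8.14 with GEM, 9.44 with VPA and 10.66 with GEM_VPA, 3.04-fold lower with GEM. SPA17, a sperm surface protein also found in tumours, was 3.10-fold lower (10.78 and 9.15). CDKN1A, the CDK inhibitor p21, was the reference gene of the p53 list and stood at 11.17 and 13.04, 3.66-fold higher.

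**Figure D3:**
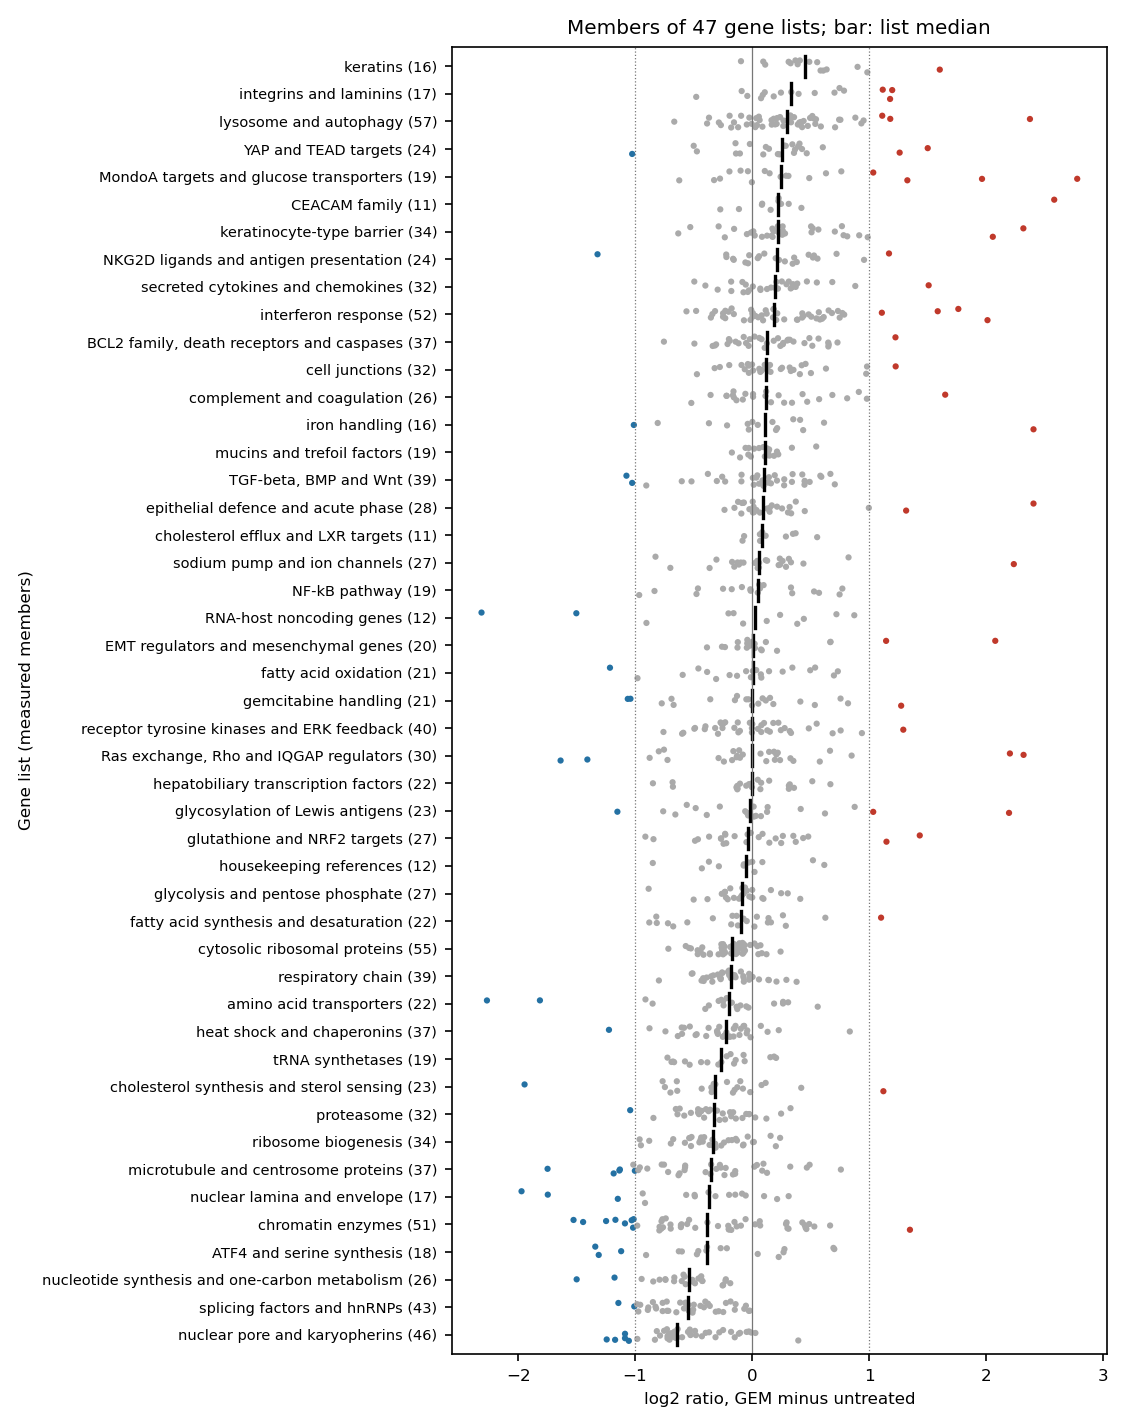
Log2 ratio of GEM over untreated for each measured member of the 47 lists, ordered by list median (black bar), with called genes red (higher) or blue (lower) and dotted lines at 2-fold. Keratins, laminins and integrins, and lysosome genes stand highest and nuclear pore, splicing and nucleotide synthesis genes lowest.

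The lowest gene outside the set-aside lists was a microRNA host. DLEU2, a long non-coding RNA on chromosome 13 (chr13:49982549-50125541, GRCh38.p14), carries the hairpins of MIR15A, MIR16-1 and MIR3613 in its length. It was at 11.08 untreated, 8.77 with GEM, 9.60 with VPA and 11.35 with GEM_VPA, 4.97-fold lower with GEM. MIR17HG (chr13:91347687-91354577), the host of 6 hairpins of the miR-17 to miR-92 cluster, was at 8.46 untreated, 6.96 with GEM, 6.83 with VPA and 7.84 with GEM_VPA, 2.83-fold lower with GEM. Both are on the same chromosome. The neighbouring non-coding gene DLEU1 was at 10.11 and 9.20 (-0.90). MIR31HG had the highest ratio (0.87) of the 12 measured genes on this list, which also holds other non-coding RNAs such as MALAT1 and TUG1.

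Of the 18 mature forms that the table gives for these hairpins, 6 are in DLEU2 and 12 in MIR17HG. Of these, 8 are shown, chosen mainly for arms that share a seed. The other arms, both of MIR3613 included, have other seeds. Among them miR-19a-5p and miR-19b-1-5p of MIR17HG, not shown, share GUUUUGC. The seed, bases 2 to 8, is in capitals, and the sequences come from RefSeq.
hsa-miR-15a-5p: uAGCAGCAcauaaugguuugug
hsa-miR-16-5p: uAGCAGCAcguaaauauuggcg
hsa-miR-17-5p: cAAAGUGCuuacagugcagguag
hsa-miR-20a-5p: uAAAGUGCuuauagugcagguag
hsa-miR-18a-5p: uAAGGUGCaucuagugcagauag
hsa-miR-19a-3p: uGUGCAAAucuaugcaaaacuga
hsa-miR-19b-3p: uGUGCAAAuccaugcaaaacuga
hsa-miR-92a-3p: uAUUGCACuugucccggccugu
In DLEU2 the 5p arms of miR-15a and miR-16 share the seed AGCAGCA. In MIR17HG, miR-17-5p and miR-20a-5p share AAAGUGC, miR-19a-3p and miR-19b-3p share GUGCAAA, and miR-18a-5p and miR-92a-3p have their own. The mature forms themselves are not analysed here. A row annotated to the MIR15A hairpin, read after its value was seen, was at 8.59 untreated and 7.19 with GEM (-1.40), and the MIR16-1 row was near the bottom of the scale (4.92 with GEM, log2 ratio -0.09).

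GEM and VPA were then compared directly, since both arrays differ from the same untreated array. Between the GEM and VPA arrays 35 genes passed the 2-fold rule (0.190% of those measured), 4 higher with GEM (0.0218%) and 31 lower (0.169%). Of the 521 genes that differed from untreated, 414 (79.5%) lay within 0.5 of the VPA array. The share over all genes is not given here. Their robust SD for GEM over VPA was 0.158, so 79.5% shows no closeness particular to the called genes. Of the 521, 14 differed at least 2-fold from the VPA array. In 12 of these the GEM array was further from untreated. LCN2 was 1.36 above VPA, the histone gene H2BC21 1.21 and ABCA12 1.13. ENPP1 (-1.30), CALB2, a calcium-binding protein (-1.29), CPM, a carboxypeptidase (-1.28), PRKAR2B (-1.16), SGCE, a sarcoglycan (-1.13), LRRC49 (-1.13), LRRCC1 (-1.07), CCDC88A, an actin-binding protein (-1.03), and CAMK4, a calcium-dependent kinase (-1.01), were lower than with VPA. Several had VPA values near untreated. CALB2 was at 8.71 untreated, 8.73 with VPA and 7.44 with GEM, and H2BC21 at 9.21, 9.19 and 10.40. In the other 2, ANKRD1 (10.32 with VPA and 8.57 with GEM) and IQGAP2 (10.70 and 9.24), the VPA array was further from untreated.

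GEM was also given on top of VPA, and the pair of arrays with VPA shares no array with the pair without it. However, the GEM array lay close to VPA and the GEM_VPA array close to untreated. Opposite signs of the called genes restate those close pairs and are not separate evidence. All 172 genes higher with GEM alone had the opposite sign in GEM_VPA over VPA, 114 of them at least 2-fold, and all 349 lower genes likewise, 138 of them at least 2-fold. The median of the higher genes was 1.22 without VPA and -1.11 with it, and of the lower genes -1.22 and 0.92. Over all 18377 genes the pair of log2 ratios had a Pearson correlation of -0.855, which is across genes and not replicates, and 76.1% of genes had opposite signs. The GEM_VPA over VPA comparison called 367 genes, 2.00% of those measured. The values of ARRDC4 show the pattern, 7.97 and 10.75 without and with GEM, and 10.29 and 8.01 without and with GEM in the presence of VPA.

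**Figure D4:**
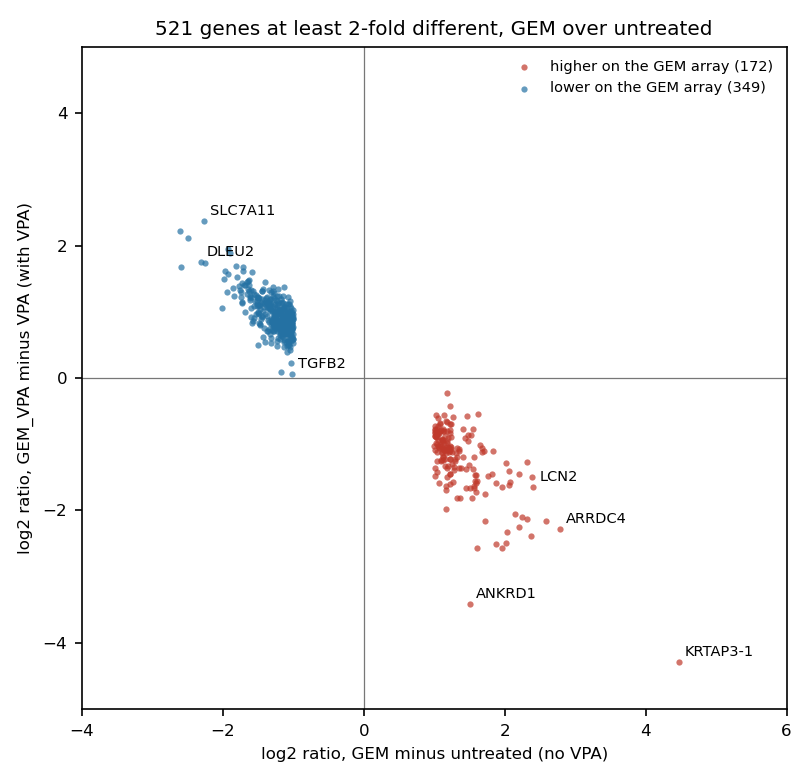
Log2 ratio with GEM alone over untreated (x) against the ratio of GEM_VPA over VPA (y) for the 521 called genes, red where higher on the GEM array (172) and blue where lower (349). All 521 points lie in the quadrants of opposite sign, from KRTAP3-1 (4.47 and -4.29) to SLC7A11 (-2.27 and 2.37).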

How the data were processed

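Total RNA of HuCCT1 cells was labelled and hybridised to Affymetrix Human Gene 1.0 ST arrays, 4 arrays in all, 1 per condition. The values are log2 intensities that the authors deposited, normalised with GeneSpring GX 11.5 and RMA per the labels and the submitters' processing notes. RMA equalises the arrays and compresses low values. No source used here names the genome build of the rows.

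Of 28869 rows, 19310 had 1 gene symbol, 1752 several and 7807 none in the platform annotation, and 99.8% of the first kind matched a RefSeq Entrez ID, with 0 symbols updated. Genes took the mean of their 1-symbol rows (685 had more than 1). A gene was called when the arrays differed by 1 or more on the log2 scale and the larger value reached the all-row median of its own array. There is no replicate, hence no test.

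Named genes were the 15 largest in each direction outside cell cycle, repair, p53 and histone lists, up to 6 called members per list (at least 3 shown where fewer were called), and a fixed set of handling and other genes. Members and lists were chosen with earlier results of these data known. Genes named beside them were picked from the lists after their values were seen. The calling step was tested on simulated data. Alternatives covered normalisation, level filter, fold limit and choice of row. Analysis used Python 3.11.15 with numpy 2.4.6, pandas 2.3.3 and matplotlib 3.10.9.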

Additional observations from a re-analysis of the deposited data

Results flagged for a closer look

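The log2 ratios of the called genes for GEM had opposite signs in the absence and the presence of VPA. This difference was not tested, since each condition has 1 array, and the labels of the close array pairs were taken as given. The GEM array lay close to VPA and the GEM_VPA array close to untreated. The opposite signs restate those pairs and are not separate evidence of a response. All 172 genes higher with GEM alone were lower in GEM_VPA over VPA, and all 349 genes lower with GEM alone were higher there. Of the 15 genes furthest above and the 15 furthest below untreated outside the cell cycle, repair, p53 and histone lists, 29 were at least 2-fold in the opposite direction. On the log2 scale of GEM_VPA over VPA, KRTAP3-1 was at -4.29, ACTBL2 at -2.33, ARRDC4 at -2.28, IQGAP2 at -2.25, CEACAM1 at -2.15, RASGRP3 at -2.13, FXYD3 at -2.10 and PTAFR at -2.05. LCN2 was at -1.65, KLK5 at -1.62, FN1 at -1.58, CLTRN at -1.50, GALNT5 at -1.44, TGM2 at -1.41 and ABCA12 at -1.27. On the other side SLC7A11 was at 2.37, DLEU2 at 1.75, SLC7A2 at 1.69, LMNB1 at 1.61, SPA17 at 1.47, MND1 at 1.45 and PRKAR2B at 1.39. ARHGAP11A was at 1.34, RBL1 at 1.33, TMPO at 1.31, INSIG1 at 1.30, LRRCC1 at 1.23, ENPP1 at 1.22 and MTBP at 1.15.

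Rows that the platform annotation gives several symbols or none were not used for genes. Of these 9559 rows, 106 passed the same 2-fold rule, 59 higher and 47 lower with GEM, and the largest ratios were 2.04 and -1.74.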

How the results depend on the processing

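Each result rests on 1 array a side, so array noise is not measured, and values below the 25th percentile are compressed. The 521 called genes numbered 426 to 554 under the other normalisations, level filters and choices of row, and 463 of them were called after quantile normalisation of the columns again, when 208 were higher and 298 lower. The count moved with the fold limit, to 1974 at 1.5-fold and 82 at 3-fold. Of the listed genes 86 were called, and 294 and 25 were at those limits. The 14 called genes that differed from the VPA array became 144 and 0, and 8 when both arrays had to be at or above their median. No named called gene of the 167 named turned its sign under the 8 alternatives, but this is no test. Changing the level filter or fold limit leaves each ratio as it is, and the other normalisations moved list medians by at most 0.10. Of the 47 list medians, 8 changed sign with the normalisation, and these were all within 0.03 of 0. No paired analysis was possible because each condition has 1 array.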
